A study of Mus musculus with 6 samples.

Results

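Mitochondrial complex I genes were read here as the genes whose symbol begins with Nduf, each through its brightest probeset with 1 gene symbol. The rule found 43 genes among the 14994 tested. They comprise 6 core subunits, 28 accessory subunits, 7 assembly factors with Ndufaf names, and Ndufa4 with Ndufa4l2, which are kept apart because Ndufa4 is now assigned to complex IV. All 43 passed the filter on dim probesets, which looks at the mean over both groups. The accessory subunits Ndufb1 and Ndufb4, the assembly factor Ndufaf8 and the subunits that mitochondrial DNA encodes are not analysed here.

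The values come from 6 MoGene 1.0 ST arrays of KSL SLAM cells from mouse bone marrow, a fraction enriched for haematopoietic stem cells and sorted as negative for lineage markers, CD48 and CD41 and positive for c-Kit, Sca-1 and CD150. In 3 arrays the mice had received PBS and in 3 G-CSF (granulocyte colony-stimulating factor, 125 mcg/kg injected subcutaneously, 2 times a day), both for 7 days. Each array stands for an independent pool of 5 to 10 mice, and the labels give no strain or age for the mice. Median intensities ran from 56.2 to 61.7 over the 6 arrays. Levels below are log2 intensities, a difference is the mean of the G-CSF arrays minus that of the PBS arrays on the log2 scale, and an adjusted p is limma's, corrected by Benjamini-Hochberg over all 14994 genes with a threshold of 0.05.

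Complex I, NADH:ubiquinone oxidoreductase, is the entry point of NADH electrons into the respiratory chain. Its matrix arm takes electrons from NADH through a flavin and a row of iron-sulfur clusters to ubiquinone, and its membrane arm pumps protons. Core subunits are those shared with bacterial enzymes and do the catalysis, accessory subunits surround them, and assembly factors help to build the complex without staying in it. Haematopoietic stem cells at rest are known for relying little on respiration and for raising it when they divide or differentiate.

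Known regulators of nuclear respiratory chain genes include NRF1, ETS family factors such as GABP, and YY1, so the promoters of the members were searched for their core letters. RefSeq promoter windows (GRCm38.p6, 250 bases before to 50 bases after the gene's start) matched 38 of the 43 members, and exact matches on either strand were sought for AAGATGGC (YY1), GCATGCGC (NRF1) and CCGGAAGT (ETS). The YY1 letters were found in 7 of the 38 members (18.4%), against 3.19% of all 27025 genes with a promoter window and 4.45% of the 11833 genes tested that had one. All 7 matches read along the gene's own strand and began 23 to 39 bases after its start. Windows with such a downstream match made up 2.03% of those of the genes tested. The word itself holds the letters ATG, and whether these matches lie at translation starts was not tested. The windows around the YY1 letters are shown because the letters recur at nearly the same place in genes of one complex, and capitals mark the match.

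Ndufa3 (chr7:3617384-3617413, plus strand): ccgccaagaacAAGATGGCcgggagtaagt
Ndufa9 (chr6:126849097-126849126, minus strand): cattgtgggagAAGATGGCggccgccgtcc
Ndufb8 (chr19:44555393-44555422, minus strand): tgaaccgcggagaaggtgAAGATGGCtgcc
Ndufc1 (chr3:51408915-51408944, minus strand): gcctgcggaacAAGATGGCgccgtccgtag
Ndufs4 (chr13:114388045-114388074, minus strand): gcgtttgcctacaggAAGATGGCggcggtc
Ndufs6 (chr13:73328433-73328462, minus strand): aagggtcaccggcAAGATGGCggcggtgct
Ndufs7 (chr10:80249462-80249491, plus strand): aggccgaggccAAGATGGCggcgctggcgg

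The NRF1 letters were found in 5 members (13.2%, against 3.05% of all genes with a window and 5.03% of the genes tested). They began at positions from -113 to 19 relative to the start, and in 3 of the 5 the letters matched on both strands in overlapping positions, since the motif is close to a palindrome. The ETS letters were found in Ndufs3 only (2.63%, against 4.31% of all genes and 7.38% of the genes tested). No window held the letters of more than 1 factor, and 25 of the 38 held none of these 3 words. The windows of the NRF1 match on the gene's strand are shown for comparison, with the match in capitals.

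Ndufa6 (chr15:82354356-82354385, minus strand): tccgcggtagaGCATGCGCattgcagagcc
Ndufa8 (chr2:36049328-36049357, minus strand): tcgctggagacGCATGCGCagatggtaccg
Ndufa11 (chr17:56717693-56717722, plus strand): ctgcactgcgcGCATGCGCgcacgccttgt
Ndufaf4 (chr4:24897961-24897990, plus strand): cagatgtctgcGCATGCGCctgtgcggaag
Ndufaf5 (chr2:140170653-140170682, plus strand): gtcccgttggcGCATGCGCctaatagaaac

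The median GC content of the windows was 59.0% in the members and 52.8% over all genes. Differences between the groups of arrays were read beside the letters only as a description. The 7 genes with YY1 letters had a median difference of -0.38, from -1.05 in Ndufs4 to 0.10 in Ndufa3, and the other members with a window had a median of -0.31. The 5 genes with NRF1 letters had a median of 0.060 and the other members with a window -0.36. A match is a run of letters and not a measured binding site.

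**Figure D1:**
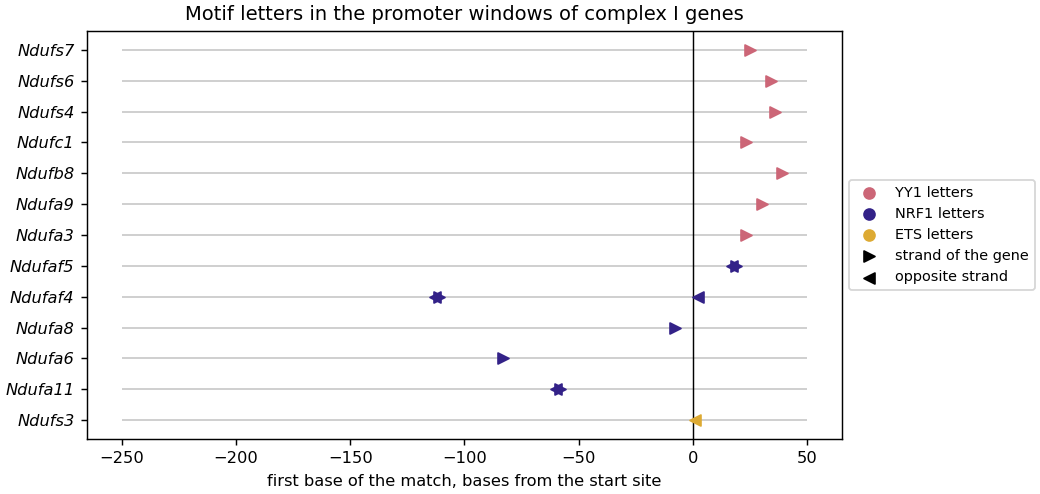
Position of exact motif matches in the promoter windows of the 13 members that hold one. The x axis is the distance in bases of the first base of a match from the gene's start, grey lines are the windows, colour gives the factor and the arrowhead the strand. The 7 YY1 matches sit 23 to 39 bases after the start on the gene's strand, while NRF1 matches lie on both sides of the start.

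Of the 43 members, 0 passed at an adjusted p under 0.05 in either direction by limma, and the smallest adjusted p was 0.702. Over all genes the same rule called 0.0267% higher and 0% lower. Without adjustment, p was under 0.05 in 4 members with lower means under G-CSF (9.3%, against 3.3% of all genes tested) and in 0 with higher means (2.73% of all genes). The means of 30 members were lower with G-CSF (69.8%), against 49.7% of all genes, and the median difference was -0.34 against 0.0015 over all genes. The groups did not overlap in 4 members with lower values under G-CSF (9.3%, against 5.05% of all genes) and in 0 with higher values (5.77% of all genes). The members vary together from array to array, so these counts are not independent observations. In bulk samples like these, fewer cells of a type and less RNA per cell cannot be told apart.

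Core subunits had the lower class means with G-CSF on every array. The mean over the 6 core genes was 7.58, 7.79 and 7.79 on the PBS arrays and 7.12, 7.44 and 7.49 on the G-CSF arrays, so the groups did not overlap, and the group means differed by -0.37. The accessory mean was 7.99, 8.40 and 8.65 with PBS and 7.65, 8.28 and 8.32 with G-CSF. There the groups overlapped and the range within each group (0.67 in both) exceeded the difference of -0.26. The assembly factors stood at 7.03, 7.17 and 7.65 with PBS and at 7.25, 6.81 and 7.23 with G-CSF (difference -0.18), also with overlap. The median difference of single genes was -0.34 for core (5 of 6 lower), -0.35 for accessory (19 of 28 lower) and -0.20 for assembly genes (4 of 7 lower). Whether the classes differ from each other was not tested.

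**Figure D2:**
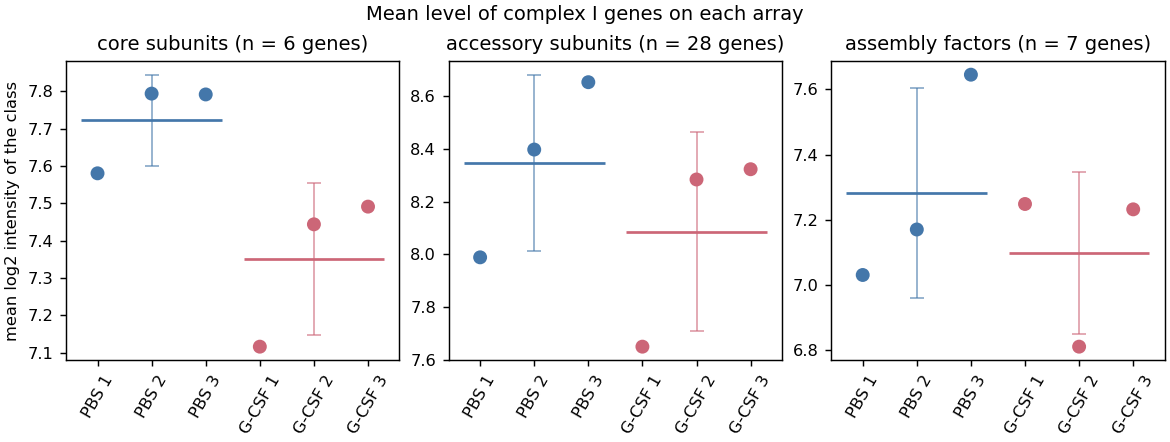
Mean log2 intensity of each class on each of the 6 arrays, with 1 panel per class and its own y axis. Points are arrays, horizontal lines group means and vertical bars ± 1 SD (n = 3 arrays). The core means of the G-CSF arrays (7.12 to 7.49) lie below those of the PBS arrays (7.58 to 7.79), while accessory and assembly means overlap.

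The arrays of a group were far apart for these genes. Read against the PBS arrays as a group, the G-CSF replicates did not carry the difference equally. G-CSF replicate 1 lay below all PBS arrays in 27 of 43 members, where 28.2% of all genes do so. G-CSF replicate 2 did so in 15 (23.3% of all genes) and replicate 3 in 10 (23% of all genes). The median distance of the members from their PBS mean was -0.58 on G-CSF replicate 1, -0.14 on replicate 2 and 0.025 on replicate 3. By class, replicate 1 was below all PBS arrays in 5 of 6 core, 19 of 28 accessory and 2 of 7 assembly genes. Replicate 2 was so in 3 core, 6 accessory and 4 assembly genes. Replicate 3 was so in 3 core, 6 accessory and 1 assembly gene.

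Among the PBS arrays the members were spread as widely. PBS replicate 1 was the lowest of its group in 29 of 43 members (35.6% of all genes) and PBS replicate 3 the highest in 25 (34.2% of all genes). G-CSF replicate 1 was the lowest of its group in 26 members (37.2% of all genes). The mean over the 43 members rose from replicate 1 to replicate 3 in both groups. It was 7.77, 8.09 and 8.35 with PBS and 7.48, 7.89 and 8.02 with G-CSF, so each G-CSF array lay below the PBS array of its number. The core and accessory means did so too, but the assembly mean on replicate 1 did not (7.25 with G-CSF, 7.03 with PBS). Whether the numbers mark pairs is not known. The median within-group SD was 0.44 over the members and 0.26 over all genes. Without G-CSF replicate 1 the accessory median difference was 0.011, the core median -0.25 and the median of all members -0.13. Without PBS replicate 3 the accessory median was -0.10, the assembly median -0.026 and that of all members -0.10. Leaving out replicate 1 of either group moved the assembly median to -0.36, and leaving out G-CSF replicate 2 moved it to 0.046. The core median stayed between -0.37 and -0.25 whichever array was left out.

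**Figure D3:**
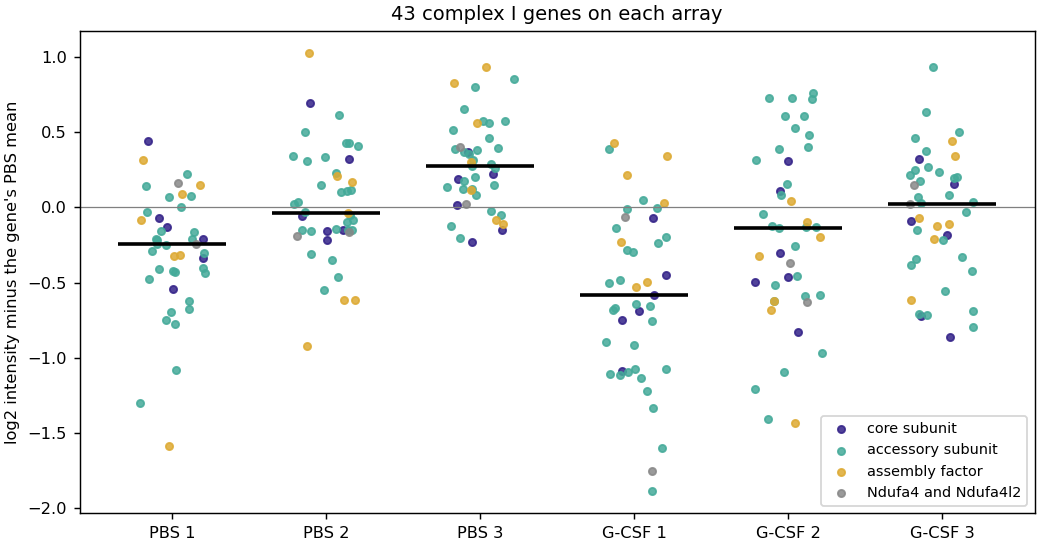
Each point is 1 of the 43 genes on 1 array, as its log2 intensity minus that gene's mean over the 3 PBS arrays. Colour gives the class and black bars the median of the 43 genes. G-CSF replicate 1 has the lowest median (-0.58), and G-CSF replicate 3 (0.025) sits at the level of the PBS mean.

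Of the core subunits, Ndufv2, which holds an iron-sulfur cluster near the NADH site, had the largest difference in size. Its level was 8.50, 9.73 and 8.89 on the PBS arrays and 8.29, 8.21 and 8.18 on the G-CSF arrays. The groups did not overlap, and the G-CSF arrays lay within a narrow band (SD 0.057 against 0.63 with PBS). The difference was -0.81 (SE 0.30, a ratio of 0.569, unadjusted p = 0.0303, limma adjusted p = 0.751). Without PBS replicate 2 it was -0.47. Ndufv1, which binds NADH and the flavin, stood at 7.36, 6.70 and 6.69 with PBS and at 6.23, 7.03 and 6.20 with G-CSF. Its G-CSF replicates 1 and 3 were below every PBS array and replicate 2 was not (difference -0.43, SE 0.29). Leaving out PBS replicate 1 gave Ndufv1 -0.21, and leaving out G-CSF replicate 2 gave -0.71. Ndufs1, the largest matrix arm subunit with several iron-sulfur clusters, differed by -0.25 (SE 0.24), with 7.51, 7.56 and 8.09 against 7.27, 7.26 and 7.87. That of Ndufs1 ran from -0.45 without G-CSF replicate 3 to -0.068 without PBS replicate 3, and was -0.15 without either of the other G-CSF arrays.

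The other core genes belong to the part that passes electrons to ubiquinone. Ndufs7, carrier of the last iron-sulfur cluster, was at 7.31, 7.97 and 7.66 with PBS and at 6.56, 7.35 and 7.56 with G-CSF (difference -0.50, SE 0.30). Only replicate 1 of the G-CSF arrays was under the PBS range. Without it the Ndufs7 difference was -0.20. Ndufs8, which holds a pair of clusters, was at 6.82, 6.74 and 7.11 against 6.82, 6.39 and 6.71 (difference -0.25, SE 0.19). Leaving out PBS replicate 3 gave Ndufs8 -0.14, and leaving out G-CSF replicate 2 gave -0.13. Ndufs3 showed little difference in means, at 7.98, 8.05 and 8.31 with PBS and 7.53, 8.42 and 8.44 with G-CSF (0.017, SE 0.27, 95% interval -0.62 to 0.65). Its G-CSF replicate 1 was below the PBS range and the other two arrays were above it. A second, dimmer Ndufs3 probeset differed by -0.099, so the sign for this gene depends on the probeset.

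Among the accessory subunits, Ndufs4 had the most negative difference of all members. Ndufs4 lies in the matrix arm, is added late in assembly, and its loss causes a Leigh-like encephalopathy in mice. Its level was 9.37, 9.38 and 9.85 with PBS and 7.65, 8.95 and 8.84 with G-CSF. The groups did not overlap, and G-CSF replicate 1 lay far under the other two (difference -1.05, SE 0.36, a ratio of 0.482, unadjusted p = 0.021, limma adjusted p = 0.702). Without that array the Ndufs4 difference was -0.64. Ndufb9, a protein of the LYR family in the membrane arm, was at 8.94, 9.10 and 9.42 with PBS and at 8.49, 8.64 and 8.77 with G-CSF. Here the 3 G-CSF arrays were close to each other and all below the PBS arrays (difference -0.52, SE 0.18, a ratio of 0.697, unadjusted p = 0.0229, limma adjusted p = 0.726). Ndufs5, on the intermembrane space side, was at 7.23, 8.59 and 8.11 against 6.85, 7.35 and 7.27, and overlapped through PBS replicate 1 (difference -0.82, SE 0.35, unadjusted p = 0.0487, limma adjusted p = 0.822). Without PBS replicate 2 the Ndufs5 difference was -0.51, while that of Ndufb9 stayed between -0.63 and -0.39 whichever array was left out.

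A further 5 accessory genes had differences between -0.80 and -0.55 with overlapping groups. Ndufa6, a LYR protein of the matrix arm, was at 6.45, 7.96 and 8.18 with PBS and 5.93, 6.94 and 7.31 with G-CSF (-0.80, SE 0.53). Ndufb10, of the membrane arm, was at 7.42, 9.23 and 9.52 against 7.50, 7.63 and 8.79 (-0.75, SE 0.59), a PBS range of 2.10. In both genes PBS replicate 1 lay far below the other PBS arrays. Without it the difference was -1.34 for Ndufa6 and -1.40 for Ndufb10. Leaving out PBS replicate 3 gave Ndufa6 -0.48, and leaving out G-CSF replicate 1 gave -0.40. Ndufb10 came to -0.49 when PBS replicate 2 was left out, to -0.35 for PBS replicate 3 and to -1.16 for G-CSF replicate 3. Ndufb6 (-0.70, SE 0.45), Ndufb5 (-0.58, SE 0.29) and Ndufb2 (-0.55, SE 0.29), also of the membrane arm, followed. For Ndufb5 the levels were 8.89, 9.29 and 9.78 against 8.42, 9.19 and 8.60, with G-CSF replicates 1 and 3 below the PBS range. The difference shrank to -0.35 without PBS replicate 3 for Ndufb5 and to -0.22 without G-CSF replicate 2 for Ndufb2. Ndufb6 came to -0.45 when PBS replicate 3 was left out, to -0.35 for G-CSF replicate 2 and to -1.16 for G-CSF replicate 3.

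Not all accessory genes leaned the same way, as 9 of 28 had higher means with G-CSF. Ndufb7, a membrane arm subunit facing the intermembrane space, was at 8.25, 7.71 and 8.56 with PBS and 8.23, 8.78 and 8.67 with G-CSF (0.39, SE 0.26, limma adjusted p = 0.94). Ndufa11, which lies where complex I meets complex III in the supercomplex, was at 7.85, 7.87 and 7.82 against 7.65, 8.61 and 8.31 (0.34, SE 0.25). Its PBS arrays were nearly equal, and G-CSF replicate 1 was under them while the other two were above. Ndufa13, also known as GRIM-19, differed by 0.26 (SE 0.22), Ndufa12 by 0.26 (SE 0.23) and Ndufa8 by 0.19 (SE 0.27). With 1 array left out these ran from 0.16 (without PBS replicate 2) to 0.58 for Ndufb7 and from 0.13 (without G-CSF replicate 2) to 0.61 (without G-CSF replicate 1) for Ndufa11. Ndufa13 ran from 0.090 (without PBS replicate 2) to 0.40 (without G-CSF replicate 1), and was 0.13 without G-CSF replicate 2. Ndufa12 ran from 0.049 (without PBS replicate 1) to 0.40 (without PBS replicate 3), and was 0.39 without G-CSF replicate 1. Ndufa8 ran from -0.029 (without G-CSF replicate 3) to 0.39 (without PBS replicate 3), and came to 0.039 when PBS replicate 1 was left out and to 0.36 for G-CSF replicate 1. The remaining 15 accessory genes ran from -0.43 (Ndufa5) to 0.18 (Ndufa1). The 95% interval held 0 in 25 of the 28 accessory genes, so for most of them the data give neither a direction nor equality.

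The assembly factors showed no common direction. Ndufaf7, a mitochondrial methyltransferase, was at 6.93, 7.18 and 6.93 with PBS and at 6.78, 6.92 and 6.40 with G-CSF, without overlap but with G-CSF replicate 2 just under PBS replicate 1 (difference -0.31, SE 0.19, limma adjusted p = 0.932). Without G-CSF replicate 3 the Ndufaf7 difference was -0.16. Ndufaf3, which acts with Ndufaf4 on the ubiquinone-binding part, was at 7.22, 7.03 and 6.96 against 6.54, 6.45 and 6.96 (-0.42, SE 0.19), and Ndufaf4 differed by -0.20 (SE 0.27). Ndufaf1, of the assembly complex for the membrane arm, was at 7.60, 7.30 and 8.85 against 7.42, 6.49 and 8.36 (-0.49, SE 0.55). Leaving out PBS replicate 3 gave Ndufaf1 -0.026, and leaving out G-CSF replicate 2 gave -0.025. It came to -0.80 when PBS replicate 2 was left out, and to -0.96 for G-CSF replicate 3. Ndufaf2, a relative of Ndufa12, had the widest spread of all members, at 6.83, 9.44 and 8.98 with PBS and 8.45, 8.10 and 8.76 with G-CSF (0.015, SE 0.63), because PBS replicate 1 was low. Ndufaf5 (0.060, SE 0.42) and Ndufaf6 (0.054, SE 0.30) had differences near 0 with intervals from -0.92 to 1.04 and from -0.65 to 0.76. Ndufaf6 was dim, with means of 5.27 with PBS and 5.33 with G-CSF, close to the filter limit of 5.15. It lay below that limit on PBS replicate 2 (4.66) and G-CSF replicate 2 (5.08), so its difference says little.

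Ndufa4, now counted in cytochrome c oxidase, was at 10.02, 10.10 and 10.66 with PBS and at 8.51, 9.63 and 10.29 with G-CSF (-0.78, SE 0.44, limma adjusted p = 0.924). G-CSF replicates 1 and 2 were below the PBS range and replicate 3 within it. Leaving out G-CSF replicate 1 gave Ndufa4 -0.30, and leaving out replicate 3 gave -1.19. Its hypoxia-inducible relative Ndufa4l2 was at 5.89, 5.54 and 5.75 against 5.66, 5.36 and 5.87 (-0.094, SE 0.19).

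**Figure D4:**
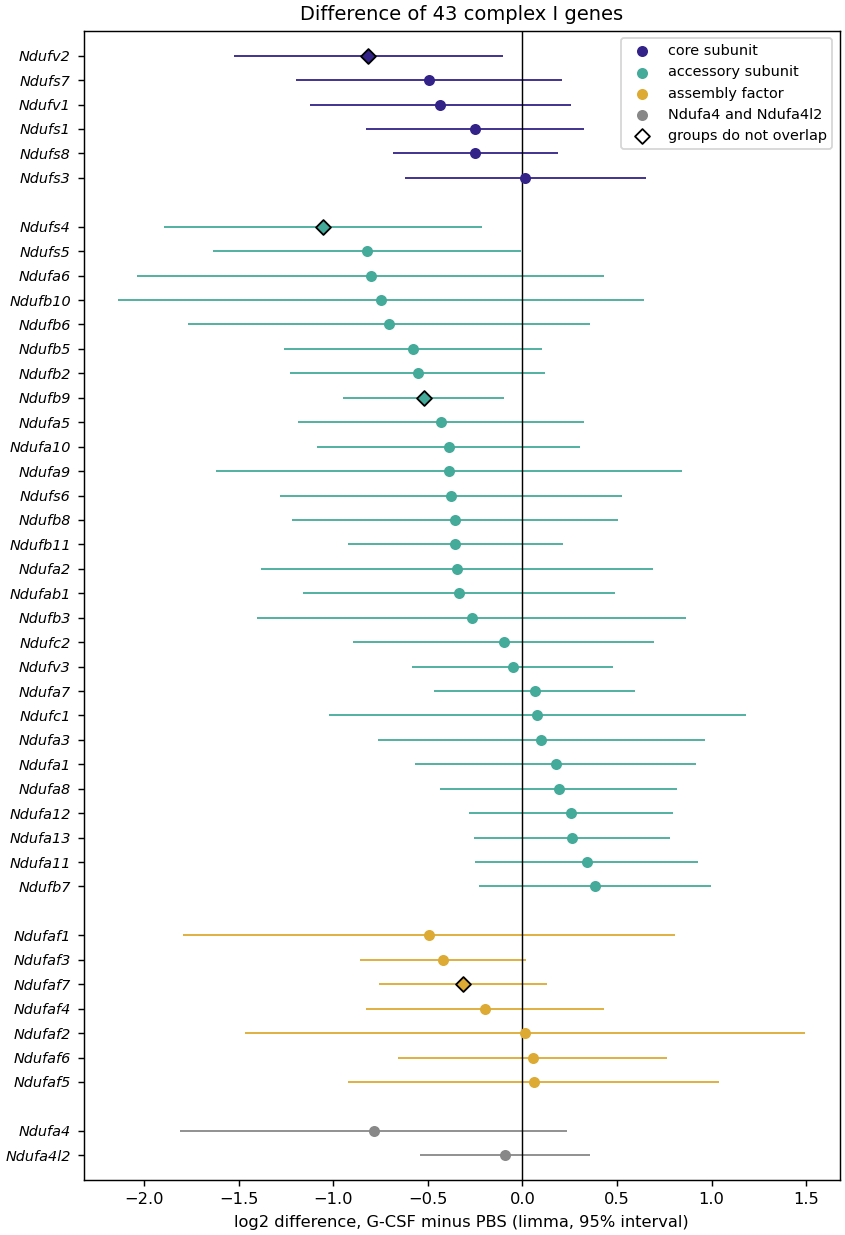
Difference of each of the 43 genes between G-CSF and PBS arrays on the log2 scale (x axis), with limma's 95% interval, sorted within class. Diamonds mark the 4 genes whose groups do not overlap (Ndufv2, Ndufs4, Ndufb9 and Ndufaf7). Intervals reach over 0 in 39 of the 43 genes.

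Assembly proteins without an Nduf name were read from a separate list. Of its 14 measured genes (of 15 listed) 11 had lower means with G-CSF, the median difference was -0.23 and 0 passed. The groups did not overlap in 3 with lower values (21.4%, against 5.05% of all genes) and in 0 with higher values (5.77% of all genes). Ecsit, a partner of Ndufaf1, was at 6.66, 6.58 and 6.68 with PBS and 6.19, 6.27 and 6.19 with G-CSF. Its arrays were tight in both groups and did not overlap (difference -0.42, SE 0.14, unadjusted p = 0.0178, limma adjusted p = 0.679). Tmem186, of the same assembly complex, differed by -0.28 (SE 0.14) and Tmem70, which also serves ATP synthase, by -0.33 (SE 0.18), both without overlap, though for Tmem70 G-CSF replicate 2 (6.292) lay only just under PBS replicate 2 (6.294). Chchd4, the import receptor of the intermembrane space, differed by -0.80 (SE 0.33) with overlapping groups.

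The list of regulators of mitochondrial biogenesis had no such lean, with lower means in 6 of 13 genes, a median of 0.055 and 0 past the threshold. Gabpb2, a GABP subunit, was at 6.64, 6.34 and 6.82 with PBS and 6.94, 7.02 and 6.94 with G-CSF, the one gene of this list without overlap (0.37, SE 0.17, limma adjusted p = 0.855). Of all genes tested, 5.77% were likewise higher without overlap. Nrf1 differed by 0.055 (SE 0.24), Gabpa by -0.17 (SE 0.25), Yy1 by 0.084 (SE 0.24), Polrmt by 0.13 (SE 0.15) and the rRNA methyltransferase Tfb1m by -0.74 (SE 0.45).

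Other genes of mitochondria and translation leaned in the same direction. Means were lower with G-CSF in 35 of 46 genes of complexes II to V (76.1%, median -0.18) and in 58 of 76 mitochondrial ribosomal proteins (76.3%, median -0.21). The same held for 56 of 59 cytosolic ribosomal proteins (94.9%, median -0.25), against 69.8% of the members and 49.7% of all genes. Without overlap and lower were 6.52%, 5.26% and 25.4% of these lists, against 9.3% of the members and 5.05% of all genes. In the cytosolic list 1 gene was without overlap and higher. In all 3 lists G-CSF replicate 1 had the lowest mean and PBS replicate 3 the highest. The complexes II to V mean was 8.52, 8.67 and 8.98 with PBS and 8.21, 8.74 and 8.66 with G-CSF. No difference between complex I and these lists was tested.

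**Figure D5:**
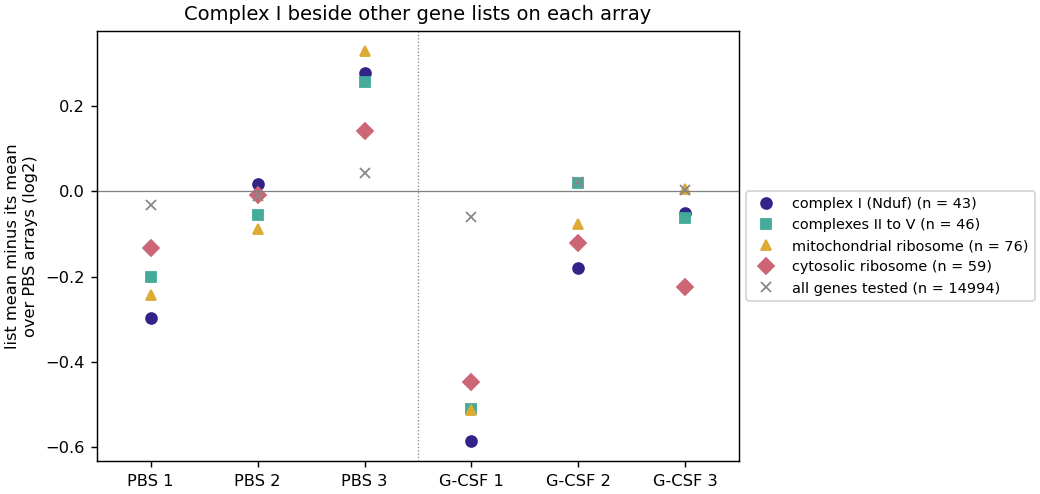
Mean log2 intensity of each gene list on each array minus the mean of that list over the 3 PBS arrays (y axis). Colours and symbols are lists, with their number of genes. The 4 mitochondrial and ribosomal lists are lowest on G-CSF replicate 1 and highest on PBS replicate 3, while the mean over all genes tested moves little.

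Markers of some other cells separated the groups, while those of others overlapped. No marker of any list passed at an adjusted p under 0.05 (smallest limma adjusted p = 0.112 for neutrophil and 0.177 for progenitor markers). Over all genes, 5.77% were without overlap and higher with G-CSF, and 5.05% without overlap and lower. All 10 neutrophil markers were higher with G-CSF without overlap, and their mean ran from 8.62 to 9.69 on the PBS and from 10.82 to 11.39 on the G-CSF arrays. The same held for the 5 progenitor markers (6.35 to 6.86 against 7.89 to 9.23). The mean of the 4 measured megakaryocyte markers ran from 6.49 to 6.77 with PBS and from 5.80 to 6.21 with G-CSF, with Pf4 the one gene of the list without overlap. Some markers of the next 3 lists were measured but too dim for the filter, so their means rest on those that passed. Erythroid markers (3 of 5 passed, 4 had a probeset) had means of 5.63 to 6.45 with PBS and 5.79 to 5.97 with G-CSF. B lymphocyte markers (2 of 5 passed, 4 had a probeset) had means of 6.26 to 6.38 against 6.19 to 6.35, and T and NK lymphocyte markers (2 of 5 passed, all 5 had a probeset) of 5.95 to 6.65 against 6.38 to 6.83. These 3 lists overlapped between the groups. The 8 genes of the stem cell list, which also holds Cd48 and Itga2b (CD41) that the gate selects against, had means of 7.52 to 7.71 with PBS and 7.08 to 7.50 with G-CSF. Kit, the c-Kit of the gate, was at 10.28, 9.92 and 9.85 against 9.28, 9.21 and 8.63, and Hlf at 10.34, 10.83 and 10.29 against 10.20, 10.46 and 10.33. G-CSF replicate 1 had the lowest stem cell mean and the lowest neutrophil mean of its group. Kit was the one gene of this list without overlap. The part of the cell mixture in the complex I values was not tested.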

How the data were processed

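The deposited table holds intensity values of 35554 probesets, processed with RMA per the submitters' processing notes; no source used here gives the software, its version or which arrays were normalized as a set. They are linear, so log2 was taken. Probesets were named through the platform annotation, in which 21789 had 1 gene symbol. The dimmest 25% of these by mean over 6 arrays (up to 5.15) were left out and the brightest probeset stood for a gene. Of 48 Nduf probesets, 5 genes had a pair, whose signs agreed except for Ndufs3. A further 3 Nduf probesets had several symbols and were not used. RefSeq lists pseudogene copies of Ndufa11, Ndufa12, Ndufab1, Ndufs5 and Ndufs6, so signal of these may be shared.

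Groups were compared with limma 3.58.1 in R 4.3.3 (lmFit, eBayes, default settings, no covariate, two-sided) over all genes. The fit was tested on simulated data. Most planted genes had to be called there only at the largest planted difference, which exceeded that of any member. The simulation therefore does not show whether differences of the size seen in the members would be called. The number of arrays limits precision, and 3 against 3 gives each gene few degrees of freedom. Members and lists were chosen with earlier results of these data known. Genes named were all core subunits, assembly factors, Ndufa4 and Ndufa4l2, the 8 most negative and 5 most positive accessory subunits, every accessory subunit without overlap, and of the assembly partner and regulator lists those without overlap and the 3 with the smallest p. Nrf1, Gabpa, Yy1, Kit, Hlf, Pf4, Ndufa5 and Ndufa1 were added after their values were seen. Promoter windows were read with pandas 2.3.3 in Python 3.11.15, and figures drawn with matplotlib 3.10.9. Alternatives changed the filter, normalization, variance model, array weights, probeset rule, replicate block, class membership and each array left out.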

Additional observations from a re-analysis of the deposited data

How the results depend on the processing

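No Nduf gene passed in any of the alternatives run (smallest adjusted p = 0.312, Ndufa6 with the replicate block). Over all genes, 12 passed with quantile normalization again, 2 with arrays centred on the median, and 0 to 6 with 1 array left out (0 unless that array was G-CSF replicate 1), against 4. With 1 array left out, the accessory median ran from -0.45 to 0.011, the count of members without overlap from 5 to 11 lower (core 1 to 2, accessory 2 to 7, assembly 1 to 2) and 0 to 5 higher (core 0 to 1, accessory 0 to 4). Fewer arrays make separation easier: 9.1% to 11.6% of all genes were then separated and lower, and 9.88% to 11.2% separated and higher (10.7% without G-CSF replicate 1, where the 5 higher members arise). Without overlap and lower were 0 assembly genes with quantile normalization again and 2 core genes with arrays centred on the median. Counting Ndufa4 and Ndufa4l2 as accessory left that median at -0.35. The arrays were not treated as pairs by their shared replicate numbers. Correlations of same-numbered deviations over all genes were 0.289, 0.019 and 0.193. Each PBS array correlated best with its own number, while G-CSF replicate 2 correlated best with PBS replicate 3 (0.10). These values do not settle whether the numbers mark pairs. The replicate block gave 5 genes past the threshold and changed no Nduf call, with Ndufs4 at limma adjusted p = 0.366.

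Of 600 values of single genes under alternatives, 562 kept sign and call and 38 changed sign, in 17 genes. Signs changed with array weights in Ndufa7 (-0.015), Ndufaf5 (-0.030), Ndufaf6 (-0.0025) and Ndufv3 (0.0092), with median centring in Ndufaf2 (-0.0029) and Ndufs3 (-0.0013), and with the mean of probesets in Ndufs3 (-0.041). With 1 array left out, differences ran from -0.10 to 0.40 for Ndufa1, -0.72 to 0.032 for Ndufa2, -0.22 to 0.49 for Ndufa3, -0.21 to 0.043 for Ndufa4l2, -0.10 to 0.27 for Ndufa7, -0.029 to 0.39 for Ndufa8, -0.94 to 0.084 for Ndufa9, -0.60 to 0.034 for Ndufab1, -0.78 to 0.53 for Ndufaf2, -0.40 to 0.046 for Ndufaf4, -0.40 to 0.47 for Ndufaf5, -0.25 to 0.21 for Ndufaf6, -0.62 to 0.16 for Ndufb3, -0.35 to 0.45 for Ndufc1, -0.45 to 0.092 for Ndufc2, -0.14 to 0.32 for Ndufs3, -0.25 to 0.062 for Ndufv3.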
